A study of Mus musculus with 8 samples.

Results

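The genes described here encode 10 enzymes of glycolysis, the pathway that splits glucose into pyruvate in the cytosol and yields ATP without oxygen: Hk1, Hk2, Gpi1, Pfkl, Aldoa, Pgk1, Pgam1, Eno1, Pkm and Ldha. They were chosen by symbol, not by their values, but with earlier results of these data known. All 10 were found among the 55450 genes of the matrix. Single liver cells of 8 C57BL/6 wild-type mice were profiled with the 10x Genomics Single-Cell 3' Kit (V3), which tags each captured mRNA with a unique molecular identifier (UMI). The 2 control mice had a normal diet and drinking water. The 3 HFD+F+CCl4 mice had a high-fat diet, fructose solution and weekly intraperitoneal carbon tetrachloride (CCl4) for 16 weeks, and the 3 WD+F+CCl4 mice had a western diet in place of the high-fat diet. Both are models of non-alcoholic steatohepatitis (NASH) with fibrosis. Livers were dissociated enzymatically, red cells were lysed and dead cells removed. The sources used here give neither age nor sex of the mice. No library had fructose or CCl4 alone, so the effects of diet, fructose and CCl4 cannot be told apart.

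Hexokinases (Hk1, Hk2) trap glucose as glucose 6-phosphate, Gpi1 converts it to fructose 6-phosphate, and the phosphofructokinase Pfkl commits it to glycolysis. Aldolase A (Aldoa) splits the sugar, Pgk1 makes the first ATP, Pgam1 and Eno1 rearrange the product, Pkm makes the second ATP and pyruvate, and Ldha turns pyruvate into lactate while regenerating NAD+. Activated macrophages, neutrophils and dividing lymphocytes are known for heavy use of this route, and hypoxia-inducible factors and Myc are known regulators of these genes, whereas hepatocytes use the isoenzyme Pklr and also run the pathway backwards as gluconeogenesis.

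All 10 genes are annotated as protein coding in GRCm38. In pathway order, Hk1 lies at chr10:62268855-62379908, Hk2 at chr6:82725025-82774454, Gpi1 at chr7:34201330-34230336, Pfkl at chr10:77986947-78010083 and Aldoa at chr7:126795234-126800751, all on the minus strand. Pgk1 lies at chrX:106187100-106203699, Pgam1 at chr19:41911923-41918660, Eno1 at chr4:150236721-150248879, Pkm at chr9:59656368-59679375 and Ldha at chr7:46841475-46855627, all on the plus strand. Pkm overlaps Gm49759 on the same strand, so reads in the shared stretch cannot be told apart. Copies of the members that are also in the matrix held few UMIs. Eno1b, a near copy of Eno1, held 1.27% as many UMIs as Eno1, and Aldoart1 0.215% as many as Aldoa.

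The bases upstream of the start sites were read because these genes are known targets of hypoxia-inducible factors and of Myc, and the members below are those with a changed level in the results and the letters ACGTG in the window. Pfkl and Gpi1 also had a changed level, in all kept cells, and held ACGTG at 0 places in the window. ACGTG is a form of the core of the hypoxia-response element, and the Myc motif CACGTG contains it on both strands. Each line gives the 150 bases before a RefSeq start site of GRCm38.p6 on the strand of the gene, 5′ to 3′, with ACGTG or its reverse complement CACGT in capitals. The windows are chr6:82774455-82774604 (minus strand) for Hk2, chr7:126799255-126799404 (minus) for Aldoa, chrX:106186950-106187099 (plus) for Pgk1, chr19:41911721-41911870 (plus) for Pgam1, chr9:59657077-59657226 (plus) for Pkm and chr7:46845654-46845803 (plus) for Ldha.
Hk2: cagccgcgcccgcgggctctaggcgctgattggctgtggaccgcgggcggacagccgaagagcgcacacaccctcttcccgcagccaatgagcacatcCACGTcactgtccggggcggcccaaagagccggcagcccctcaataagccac
Aldoa: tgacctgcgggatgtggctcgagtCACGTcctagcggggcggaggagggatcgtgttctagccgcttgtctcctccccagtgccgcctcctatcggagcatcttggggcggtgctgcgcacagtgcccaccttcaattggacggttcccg
Pgk1: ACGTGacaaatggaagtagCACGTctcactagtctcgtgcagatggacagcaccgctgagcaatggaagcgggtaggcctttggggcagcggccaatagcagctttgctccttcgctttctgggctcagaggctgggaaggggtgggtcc
Pgam1: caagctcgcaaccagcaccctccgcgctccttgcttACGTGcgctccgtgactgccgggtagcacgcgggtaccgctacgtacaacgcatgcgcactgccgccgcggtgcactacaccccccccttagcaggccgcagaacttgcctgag
Pkm: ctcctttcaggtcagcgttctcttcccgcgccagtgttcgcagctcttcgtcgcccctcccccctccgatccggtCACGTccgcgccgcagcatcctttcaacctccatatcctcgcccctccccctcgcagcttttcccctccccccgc
Ldha: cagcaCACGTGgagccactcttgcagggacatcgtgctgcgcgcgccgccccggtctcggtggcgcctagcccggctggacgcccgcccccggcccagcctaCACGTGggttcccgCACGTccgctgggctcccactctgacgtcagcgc

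Of the 17 RefSeq start sites of the members, 6 held ACGTG on either strand (35.3%), in 6 of the 10 genes, where 11.2% of all 32851 start sites and 12.6% of 27025 genes did. The other form of the core, GCGTG, stood before 6 of the 17 start sites (35.3%), in 5 of the 10 genes, against 20.5% of all start sites and 22.9% of genes. CACGTG stood before 4.3% of all start sites and, among the members, in the Ldha window alone, where it occurs at 2 places. These shares describe letters in a window of 150 bases and were not tested.

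After removal of barcodes with 500 genes or fewer, or with 25% or more mitochondrial UMIs, 80474 cells remained, 14956 of them from controls, 31956 from the HFD+F+CCl4 model and 33562 from the WD+F+CCl4 model. Library totals ran from 6135827 to 64855024 UMIs, and control replicate 2, the smallest, was also the shallowest per cell, with a median of 992.5 UMIs against 2397 to 4278 in the other mice. The same barcode sequence occurred in 2 or more libraries for 732 sequences, and no such pair held the same counts. Cells were grouped into 37 clusters without the glycolysis genes, and clusters were named from marker genes. Clusters that took no name held 8468 cells, 8176 of them from control mice. Levels are UMIs of a gene divided by all UMIs of a cell type in a mouse and scaled to CPM, and each mouse is 1 replicate. Levels are compared between mice and cell types, not between genes. Aldoa was the best covered member, with 224705 UMIs and at least 1 UMI in 69.8% of cells, and Hk1 the least, with 14941 UMIs in 14.8% of cells.

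UMIs of the glycolysis enzymes were found in all 15 cell types compared in the NASH mice, and the summed level of the 10 members differed 2.48-fold between the highest and the lowest type. Over the types with at least 20 cells in at least 3 NASH mice, neutrophil-like cells stood highest, with 3547 ± 401 CPM (SD, n = 6), followed by classical monocyte-like cells with 3292 ± 332 CPM (n = 6). B-like cells stood lowest, with 1429 ± 223 CPM (n = 6). Of the 14 neighbouring pairs in this order, 13 were closer together than the larger of their SDs, so the order is one of groups of types rather than of single types. The gap that was larger lay between endothelial-like cells (2043 ± 264 CPM, n = 5) and NK-like cells (1660 ± 180 CPM, n = 6). Clusters were formed from these cells, so no test between types was run. Free RNA was not subtracted from these levels, and markers of hepatocytes summed to 255 to 1164 CPM in endothelial-like cells of NASH mice and 53.0 to 884 CPM in B-like cells.

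**Figure D1:**
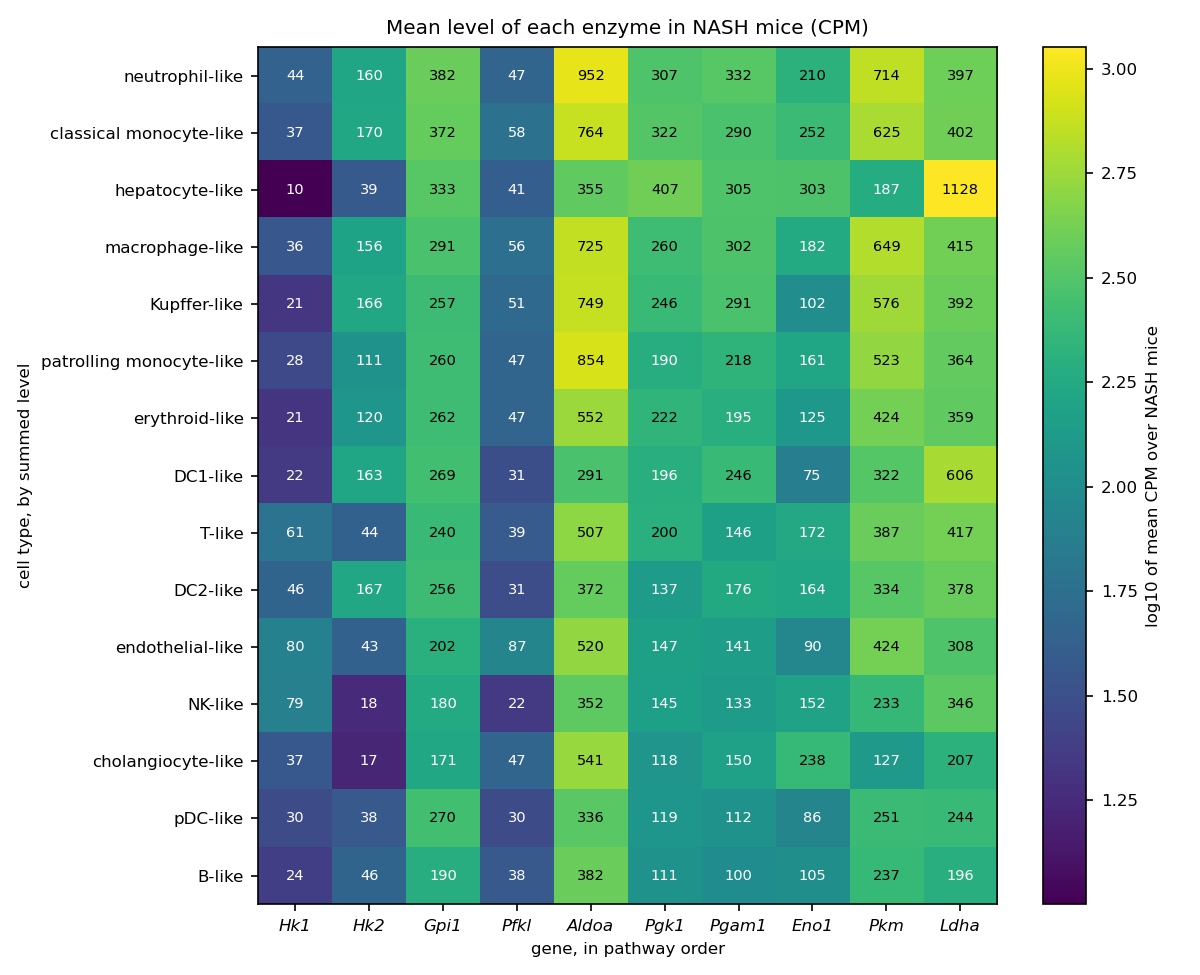
Levels of the glycolysis enzymes in the NASH mice by cell type, in CPM, with cell types in rows, enzymes in columns in pathway order, the mean over mice in each cell and its log10 as colour. Ldha stands highest in hepatocyte-like cells (1128 CPM), and Hk2 in classical monocyte-like (170.2 CPM) and other myeloid cells.

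Individual enzymes had their own cell types. Hk1, the hexokinase of most resting tissues, was highest in endothelial-like (79.7 ± 18.1 CPM, n = 5), NK-like (78.7 ± 22.4 CPM, n = 6) and T-like cells (61.0 ± 8.8 CPM, n = 6), which followed each other within their spread. Hk2, the inducible hexokinase, had another order: classical monocyte-, DC2-, Kupffer-, DC1-, neutrophil- and macrophage-like cells lay between 156 and 170.2 CPM within their spread. The steps down from macrophage-like to erythroid-like cells (120.3 ± 26.5 CPM, n = 3) and from patrolling monocyte-like cells (111 ± 42.0 CPM, n = 6) to B-like cells (46.3 ± 7.3 CPM, n = 6) exceeded the spread. NK-like cells held 17.6 ± 29.7 CPM (n = 6).

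Ldha stood apart in hepatocyte-like cells, with 1128 ± 124 CPM (n = 6), above type 1 dendritic (DC1)-like cells with 606 ± 80.9 CPM (n = 6). The gap between them, and that from DC1-like to T-like cells (417 ± 71.2 CPM, n = 6), exceeded the spread. From T-like cells down to B-like cells (196 ± 62.2 CPM, n = 6) each neighbour lay within the spread. The 6 NASH mice held between 30 and 330 hepatocyte-like cells each and the control mice 24 and 4, so hepatocyte-like cells were not compared between groups. Their median share of mitochondrial UMIs was 0% to 1.35% in the NASH mice and 6.83% in control replicate 1. Whether these barcodes hold intact hepatocytes was not tested. Pkm, in contrast, was highest in neutrophil-like cells (714 ± 48.8 CPM, n = 6) and lowest in hepatocyte-like (187 ± 43.2 CPM, n = 6) and cholangiocyte-like cells (127 ± 49.9 CPM, n = 5). Aldoa was highest in neutrophil-like (952 ± 131 CPM, n = 6) and patrolling monocyte-like cells (854 ± 133 CPM, n = 6) and lowest in DC1-like cells (291 ± 50.7 CPM, n = 6).

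Over 16 types, each as its mean over mice, Pgam1 (Pearson's r = 0.945) and Pgk1 (0.923) followed the sum of the members most closely and Hk1 did not (-0.164). Outside the members, the genes whose pattern was most like the sum were Daglb (0.825), Msrb1 (0.823), Rab5if (0.816), Ftl1 (0.815) and Txn1 (0.805). The types share libraries and depth, so these values are descriptions.

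The first comparison asked whether monocyte- and macrophage-like cells of NASH mice, the cells that gather in fibrotic liver, carry more mRNA of these enzymes. Aldoa and Pgam1 were higher in both models, and Pkm and Ldha also passed the test in WD+F+CCl4 mice. The hexokinases at its entry did not pass the test in either model. In edgeR's quasi-likelihood test with Benjamini-Hochberg adjustment, 2 of 10 members were higher in HFD+F+CCl4 mice, where 3.08% of all 16442 genes tested were. In the WD+F+CCl4 model 4 of 10 were, where 4.48% of genes were. No member was lower, where 3.3% and 4.34% of genes were.

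Aldoa stood at 286 and 329.8 CPM in the control mice, 642, 594 and 922 CPM in the HFD+F+CCl4 mice and 670.4, 914 and 756 CPM in the WD+F+CCl4 mice. All 6 NASH mice lay above both control mice, and the lowest of them was HFD+F+CCl4 replicate 2. The log2 fold change was 1.30 (SE 0.28, adjusted p = 0.0280, edgeR) in the HFD+F+CCl4 model and 1.46 (SE 0.28, adjusted p = 0.0149) in the WD+F+CCl4 model. Pgam1, the mutase that moves the phosphate of 3-phosphoglycerate, stood at 142 and 152 CPM in the control mice, 229, 283 and 333 CPM in the HFD+F+CCl4 mice and 281, 269.8 and 306 CPM in the WD+F+CCl4 mice. Again no NASH mouse overlapped the control mice, with log2 fold changes of 1.00 (SE 0.23, adjusted p = 0.0389) and 1.07 (SE 0.23, adjusted p = 0.0264).

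Pkm, which makes pyruvate, stood at 376 and 425 CPM in the control mice, 436, 539.6 and 661 CPM in the HFD+F+CCl4 mice and 697, 721 and 673 CPM in the WD+F+CCl4 mice. The WD+F+CCl4 mice were close together and all NASH mice lay above the controls, but HFD+F+CCl4 replicate 1 came near control replicate 2. Pkm passed the test in WD+F+CCl4 mice (log2 fold change 0.92, SE 0.24, adjusted p = 0.0486), and its value in HFD+F+CCl4 mice was 0.52 (SE 0.24, adjusted p = 0.221). Ldha stood at 177 and 228 CPM in the control mice, 299, 364 and 527 CPM in the HFD+F+CCl4 mice and 359.9, 415 and 429 CPM in the WD+F+CCl4 mice. All NASH mice were above both controls and HFD+F+CCl4 replicate 3 was the highest. Its log2 fold change was 1.12 (SE 0.29, adjusted p = 0.0441) in WD+F+CCl4 mice and 1.07 (SE 0.29, adjusted p = 0.0603) in HFD+F+CCl4 mice.

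Pfkl, the liver-type phosphofructokinase, had changes as large but a wider spread between the controls. It stood at 18.8 and 34.9 CPM in the control mice, 44.3, 46.5 and 72.9 CPM in the HFD+F+CCl4 mice and 46.7, 63.9 and 47.9 CPM in the WD+F+CCl4 mice. The NASH mice lay above both controls, and the values were 1.28 (SE 0.36, adjusted p = 0.0705) and 1.28 (SE 0.36, adjusted p = 0.0619) on the log2 scale. Hk2 stood at 164 and 171 CPM in the control mice, 200.1, 131 and 137 CPM in the HFD+F+CCl4 mice and 136, 153 and 136 CPM in the WD+F+CCl4 mice. The groups overlapped, because HFD+F+CCl4 replicate 1 was above both controls and the other NASH mice were below them, and the log2 fold changes were -0.07 (adjusted p = 0.874) and -0.14 (adjusted p = 0.683). Leaving out control replicate 1 turned these values to 0.11 and 0.045, and without HFD+F+CCl4 replicate 2 the first was 0.03. Hk1, Gpi1, Pgk1 and Eno1 overlapped between the groups, with log2 fold changes between -0.47 and 0.60. In all, 5 of 10 members stood above both controls in every NASH mouse, where 24.7% of genes did. The median log2 fold change over the members was 0.50 and 0.76, and over all genes tested 0.12 and 0.11, a shift that the members' values include.

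**Figure D2:**
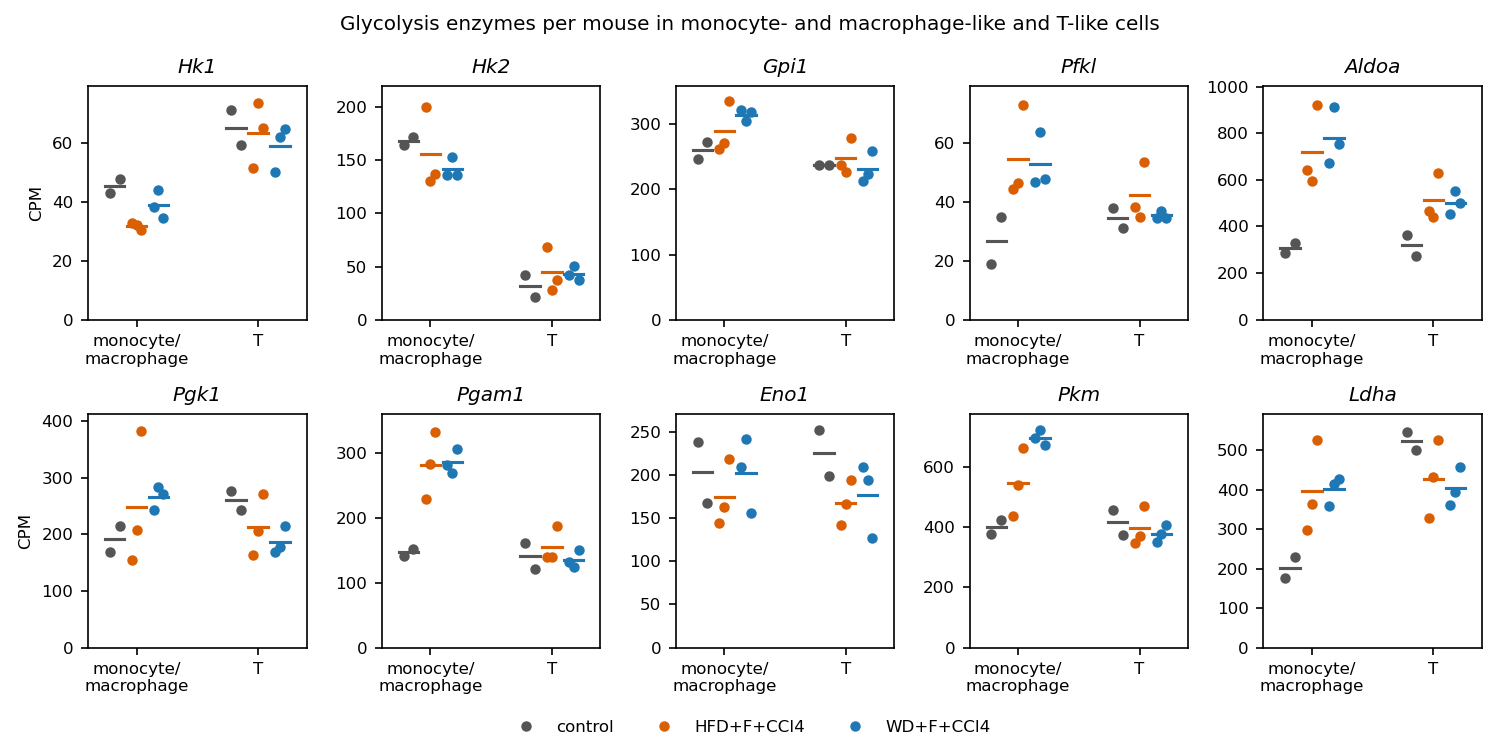
CPM of each glycolysis enzyme in monocyte- and macrophage-like and in T-like cells, with 1 point per mouse and a line at the mean of the group. In the myeloid cells Aldoa, Pgam1, Pkm, Ldha and Pfkl of every NASH mouse lie above both control mice, and in T-like cells only Aldoa does.

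The control cells of this class were few and differed in kind. They numbered 789, with 2235300 and 315351 UMIs, against 27559542 to 35843652 UMIs in each NASH mouse, and 89.2% of them lay in cluster 25, led by Cxcl9, Cxcl10 and immunoglobulin genes. HFD+F+CCl4 cells lay mostly in clusters 0 (22.1%), 1 (22.0%) and 9 (14.2%), and WD+F+CCl4 cells in clusters 0 (42.9%), 2 (23.9%) and 1 (16.5%). Markers of classical monocytes summed to 7880 to 7908 CPM in the controls and 1244 to 8249 CPM in the NASH mice. The 7 macrophage markers, none of them at 0 in any mouse, summed to 231 to 428 and 3932 to 8794 CPM. Markers of hepatocytes summed to 1433 to 2406 CPM in the controls and 44.2 to 547 CPM in the NASH mice, and markers of T cells to 84.6 to 352 and 10.0 to 16.4 CPM. The part of these differences in the result was not tested. In classical monocyte-like cells alone, where that control cluster stands, 4 members (Pfkl, Aldoa, Pgam1 and Ldha) were higher in HFD+F+CCl4 mice and 6 (these, Gpi1 and Pkm) in WD+F+CCl4 mice, where 4.37% and 6.02% of 12126 genes were. This type joins clusters 25 and 2, and its control cells were 704 from cluster 25 and 10 from cluster 2. Cluster 2 held 1680 cells of the high-fat model and 4014 of the western diet model, and cluster 25 at most 7 cells of any NASH mouse. The fit therefore still compared different clusters, and it cannot separate group from cluster. Clusters 9 and 11, led by stress genes, came mostly from HFD+F+CCl4 replicate 1, with 2637 of 3079 and 2483 of 2660 cells. Without them and cluster 8, led by immunoglobulin and ribosomal RNA genes, the counts were 3 and 4, where 3.85% and 5% of genes were higher. Stress genes summed to 700 to 837 CPM in the controls and 711 to 4772 CPM in the NASH mice.

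The calls moved when single mice were left out, and a fit without either control mouse rests on 1 control. Without control replicate 1 or without control replicate 2, neither model had a member past the threshold. The count for HFD+F+CCl4 mice fell to 1 (Aldoa) without HFD+F+CCl4 replicate 2 or without any one of the WD+F+CCl4 mice, and rose to 3 without HFD+F+CCl4 replicate 1. The count for WD+F+CCl4 mice was 2 without HFD+F+CCl4 replicate 2 and 1 (Aldoa) without any one of the WD+F+CCl4 mice. The direction of Aldoa held in all of these fits, with log2 fold changes between 1.05 and 1.56. Those of Pgam1 lay between 0.84 and 1.18 in HFD+F+CCl4 and 1.01 and 1.23 in WD+F+CCl4 mice. In WD+F+CCl4 mice those of Pkm lay between 0.91 and 1.03 and those of Ldha between 1.07 and 1.20.

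T-like cells gave no call in either model, where 1.42% (HFD+F+CCl4) and 3.5% (WD+F+CCl4) of 13180 genes were higher and 1.18% and 3.65% lower. At an unadjusted p under 0.05 edgeR counted 1 member in each model, Aldoa, and DESeq2 called 0 and 1 after adjustment. Ldha stood at 546 and 502 CPM in the control mice, 328, 431 and 527 CPM in the HFD+F+CCl4 mice and 363, 395 and 458 CPM in the WD+F+CCl4 mice. Control mice were near the top of the range here and HFD+F+CCl4 replicate 3 overlapped them, with log2 fold changes of -0.25 (SE 0.23, adjusted p = 0.595) and -0.24 (SE 0.23, adjusted p = 0.598). Aldoa stood at 364 and 274 CPM in the control mice, 466, 440.2 and 630.0 CPM in the HFD+F+CCl4 mice and 452, 552 and 503 CPM in the WD+F+CCl4 mice, the only member whose NASH mice all lay above both controls in these cells, where 13.9% of genes did. Its log2 fold changes were 0.69 (SE 0.24, adjusted p = 0.147) and 0.77 (SE 0.24, adjusted p = 0.0878). The median over the members was 0.02 and 0.01, and over all genes 0.04 and 0.04.

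Control T-like cells differed from those of NASH mice in cell cycle. Cells with at least 2 of 5 cell cycle genes made 40.2% and 66.5% of them in the control mice and 4.86% to 14.5% in the NASH mice, and 58.1% of control cells lay in cluster 10 where 56.2% and 53.8% of cells of the models lay in cluster 4. Clusters 6 and 26 carry T markers but took no name, and hold few cells of NASH mice. With them added to the T-like cells, 0 and 2 members (Hk2 and Aldoa) were higher, where 4.21% and 5.99% of genes were. Macrophage markers summed to 37.4 to 62.6 CPM in control and 696 to 2289 CPM in NASH T-like cells, and the part of these differences in the T-like values was not tested.

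The effect of NASH differed between monocyte- and macrophage-like and T-like cells for 6 members, all with the larger value in the myeloid cells. The test took the log2 CPM difference between both types within each mouse and compared the mean of the models with the control mice in limma, with Benjamini-Hochberg adjustment over 12823 genes, of which 3.64% differed in this direction and 9.12% in either. Ldha differed most, by 1.32 (SE 0.17, adjusted p = 0.00317). Its level in monocyte- and macrophage-like cells relative to T-like cells was -1.62 and -1.14 on the log2 scale in the control mice and between -0.24 and 0.07 in the NASH mice, so these cell types held nearly equal levels in NASH livers and did not in control livers. Pgam1 differed by 0.94 (SE 0.17, adjusted p = 0.0108), Pkm by 0.70 (SE 0.15, adjusted p = 0.0231) and Pgk1, the kinase of the first ATP step, by 0.80 (SE 0.21, adjusted p = 0.0441). Aldoa differed by 0.62 (SE 0.17, adjusted p = 0.0452) and Pfkl by 1.14 (SE 0.31, adjusted p = 0.0476). Hk1, Hk2, Gpi1 and Eno1 did not pass, with differences between -0.41 and 0.16.

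Ldha stayed past the threshold in every alternative of this test, with differences between 0.73 and 1.44, whereas the other members and their count moved. Without control replicate 1 Ldha alone was called, and the differences were 0.62 for Pgam1, 0.48 for Pgk1, 0.47 for Pkm, 0.29 for Pfkl and 0.27 for Aldoa. The count was 2 without HFD+F+CCl4 replicate 2, 3 without WD+F+CCl4 replicate 1 or 2, and 2 without cycling cells, where Ldha differed by 1.05 (adjusted p = 0.00920). With clusters 6 and 26 counted as T-like, which raised the control T-like cells from 564 and 161 to 4159 and 918, only Ldha was called with the larger value in the myeloid cells (0.79, adjusted p = 0.0201). Hk2 then differed in the opposite direction (-1.45, adjusted p = 0.00502), and the median over the members was 0.22 in place of 0.66. Against endothelial-like cells, 0 of 10 members differed (7 mice, 0.652% of 10429 genes called). At an unadjusted p under 0.05 limma counted 2 members, where 1346 of 10429 genes passed. These were Hk2 with -1.43 (SE 0.47, adjusted p = 0.230) and Eno1 with -1.65 (SE 0.51, adjusted p = 0.198). In endothelial-like cells the control mouse with fewer UMIs held 2 of Hk2 and 1 of Eno1, so both differences rest partly on very few UMIs.

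In neutrophil-like cells Aldoa and Pgam1 were higher in both models and Pgk1 in WD+F+CCl4 mice. Aldoa stood at 365 and 253 CPM in the control mice, 959.9, 943 and 1139 CPM in the HFD+F+CCl4 mice and 745, 1023 and 904 CPM in the WD+F+CCl4 mice. Each NASH mouse was above both controls, and the log2 fold changes were 1.68 (SE 0.37, adjusted p = 0.0267, edgeR) and 1.57 (SE 0.37, adjusted p = 0.0267). Pgam1 stood at 84.9 and 112 CPM in the control mice, 299, 329 and 427 CPM in the HFD+F+CCl4 mice and 300.1, 292 and 345 CPM in the WD+F+CCl4 mice, again with no overlap and with values of 1.99 (SE 0.34, adjusted p = 0.00877) and 1.88 (SE 0.34, adjusted p = 0.00813). Pgk1 stood at 110.3 and 169 CPM in the control mice, 249, 261 and 447 CPM in the HFD+F+CCl4 mice and 262, 313 and 308 CPM in the WD+F+CCl4 mice. All NASH mice were above the controls, and it passed in WD+F+CCl4 mice (1.38, SE 0.39, adjusted p = 0.0485) and had a value of 1.44 (SE 0.39, adjusted p = 0.0512) in HFD+F+CCl4 mice.

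In neutrophil-like cells the counts were 2 of 10 and 3 of 10, where 2.97% and 4.31% of 11041 genes were higher, and 0 members were lower, where 2.58% and 3.99% were. Of the members, 9 stood above both controls in every NASH mouse, all but Hk1, where 25.3% of genes did. The control mouse with fewer UMIs held 1 of Pfkl, 2 of Hk2, 4 of Pgam1 and 5 each of Gpi1 and Eno1. It held 6 each of Pgk1 and Hk1, 8 of Pkm, 9 of Aldoa and 10 of Ldha, so its levels rest on few UMIs. The medians were 1.07 and 1.10 over the members and 0.15 and 0.13 over all genes. Most of these cells lay in cluster 3 in all groups (69.8% to 81.4%). Control replicate 2 had only 21 of them, with 35579 UMIs, and without it Aldoa and Pgam1 were called in both models. Without control replicate 1, which leaves those 21 cells as the control, no member was called in either model, although the change of Aldoa was then 2.67 (adjusted p = 0.0649) and 2.54 (adjusted p = 0.0768) and that of Pgam1 2.32 and 2.19. Without HFD+F+CCl4 replicate 3, Pgam1 alone was called in HFD+F+CCl4 mice and 4 members in WD+F+CCl4 mice, and without WD+F+CCl4 replicate 2 Pgam1 alone was called in WD+F+CCl4 mice. Hepatocyte markers summed to 3205 to 3317 CPM in control and 110 to 1053 CPM in NASH neutrophil-like cells, and macrophage markers to 169 to 235 and 628 to 1971 CPM. Their part was not tested.

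**Figure D3:**
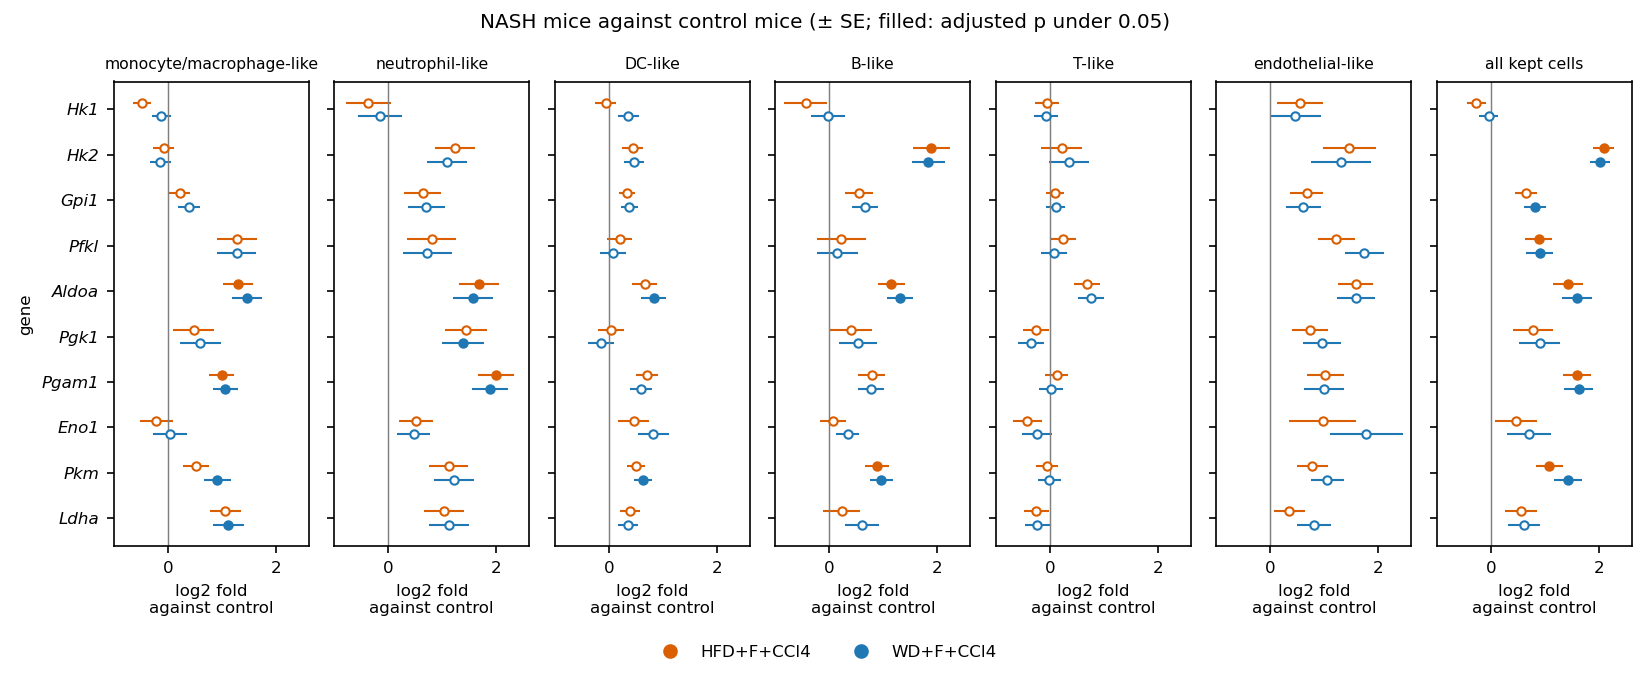
Log2 fold changes of the glycolysis enzymes against control mice in each cell type tested, and in all kept cells, as points with the standard error of the fit, filled where the adjusted p is under 0.05, in separate colours for the models. Across the cell types Aldoa is above 0 in all 12 tests, from 0.66 to 1.68, and no member is filled in T-like cells.

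In B-like cells the entry enzyme Hk2 rose in both models, together with Aldoa and Pkm. Hk2 stood at 15.6 and 7.2 CPM in the control mice, 48.8, 42.7 and 50.9 CPM in the HFD+F+CCl4 mice and 40.9, 57.2 and 37.4 CPM in the WD+F+CCl4 mice. The level of control replicate 2 rests on only 3 UMIs. All NASH mice were above both controls, with log2 fold changes of 1.89 (SE 0.35, adjusted p = 0.00514, edgeR) and 1.83 (SE 0.31, adjusted p = 0.00154). Aldoa stood at 187 and 189.6 CPM in the control mice, 355, 283 and 444 CPM in the HFD+F+CCl4 mice and 380.4, 441 and 387 CPM in the WD+F+CCl4 mice, without overlap, and changed by 1.15 (SE 0.25, adjusted p = 0.0145) and 1.30 (SE 0.24, adjusted p = 0.00304). Pkm stood at 138 and 151 CPM in the control mice, 203, 216 and 269 CPM in the HFD+F+CCl4 mice and 235, 267 and 229.8 CPM in the WD+F+CCl4 mice. It too was above both controls in every NASH mouse, with values of 0.88 (SE 0.23, adjusted p = 0.0368) and 0.96 (SE 0.22, adjusted p = 0.0107).

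These 3 of 10 members were called in each model, where 3.75% and 6.76% of 9858 genes were higher in B-like cells, and 0 were lower, where 2.06% and 4.7% were. Those 3 and Gpi1 were above both controls in all NASH mice, where 5.97% of genes were. The medians were 0.47 and 0.63 over the members and 0.01 over all genes in both models. Control cells lay mostly in cluster 12 (89.5%), led by Jchain and immunoglobulin genes, and NASH cells in cluster 13 (71.8% and 84.5%). The macrophage markers summed to 19.2 to 25.2 CPM in control and 196 to 2335 CPM in NASH B-like cells, hepatocyte markers to 2214 to 2362 and 53.0 to 884 CPM, and Hk2 was at 131 to 200.1 CPM in monocyte- and macrophage-like cells of NASH mice. Without cells that carry markers of another lineage, 13.3% to 26.3% of the B-like cells of a mouse, Hk2 changed by 2.19 (adjusted p = 0.0409) and 1.31 (adjusted p = 0.157), Pkm by 0.73 (adjusted p = 0.265) and 0.34 (adjusted p = 0.565), and Aldoa by 1.16 (adjusted p = 0.0328) and 1.10 (adjusted p = 0.0194). Pkm kept its call in 9 of 19 alternatives in the HFD+F+CCl4 model. Stress genes summed to 259 to 267 CPM in control and 310.2 to 3286 CPM in NASH B-like cells, and of 8 of them Jun (3.22) and Atf3 (2.43) were higher in the HFD+F+CCl4 model and Atf3 (2.08) in the WD+F+CCl4 model. Without control replicate 1 or 2 fewer members passed in HFD+F+CCl4 mice. Without control replicate 1 the changes of Hk2 were 2.95 and 2.91, and they then rest on 3 control UMIs. The part of stress genes and, beyond the fit without cells of another lineage, of other cell types in these values was not tested. The count in HFD+F+CCl4 mice was 2, Hk2 and Aldoa, without HFD+F+CCl4 replicate 2 or 3 or WD+F+CCl4 replicate 1 or 2.

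**Figure D4:**
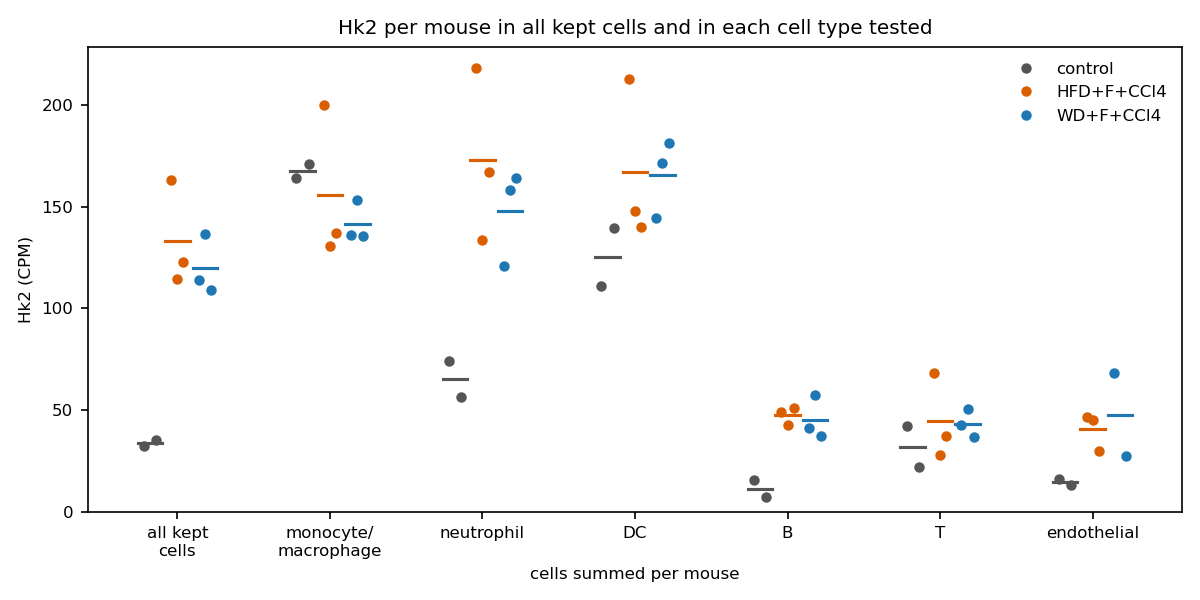
CPM of Hk2 in each mouse for the cell types tested and for all kept cells, with 1 point per mouse and a line at the mean of the group. In B-like cells the control mice lie at 7.2 CPM (3 UMIs) and 15.6 CPM and the NASH mice between 37.4 and 57.2 CPM, while the groups overlap in monocyte- and macrophage-like cells.

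In DC-like cells 0 of 10 members were higher in HFD+F+CCl4 mice, where 2.96% of 11896 genes were, and 2 of 10 in the WD+F+CCl4 model, where 6.61% were. None was lower, where 3.3% and 7.11% of genes were. For HFD+F+CCl4 mice edgeR counted 4 at an unadjusted p under 0.05, and DESeq2 called 1, Pgam1, and the shares of all genes for these are not reported here. Aldoa stood at 193 and 246 CPM in the control mice, 312, 266 and 422 CPM in the HFD+F+CCl4 mice and 331, 434 and 352 CPM in the WD+F+CCl4 mice. The NASH mice were above both controls by a narrow margin, and the change was 0.83 (SE 0.23, adjusted p = 0.0363) in WD+F+CCl4 mice. Pkm stood at 208 and 259 CPM in the control mice, 313, 289 and 352 CPM in the HFD+F+CCl4 mice and 323, 372 and 351 CPM in the WD+F+CCl4 mice, also without overlap, and changed by 0.64 (SE 0.17, adjusted p = 0.0290). Of the members, 6 stood above both controls in every NASH mouse, where 15.5% of genes did, and the median was 0.42 in both models and 0.02 and 0.00 over all genes. Control cells were mostly DC1-like (76.4% in cluster 17) and NASH cells mostly DC2-like (73.5% and 86.6% in cluster 5). In DC1-like cells alone 0 and 1 members were higher, the 1 being Ldha, where 0.951% and 2.03% of genes were. Without either control mouse, or without WD+F+CCl4 replicate 1 or 2, no member was called in DC-like cells, and without WD+F+CCl4 replicate 3 only Eno1 was. Macrophage markers summed to 53.2 to 75.4 CPM in control and 600.4 to 917 CPM in NASH DC-like cells, and their part was not tested.

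Endothelial-like cells, all in cluster 7, gave no call in 7 mice, where 0.338% and 0.301% of 10637 genes were higher and 0.846% and 0.921% lower. WD+F+CCl4 replicate 1 had 9 of these cells and was left out. At an unadjusted p under 0.05 edgeR counted 7 and 8 members, and DESeq2 called 1 in each, Aldoa. The shares above are for the adjusted p of edgeR. Those of all genes at the unadjusted level or in DESeq2 are not reported here, so these counts have no background beside them. Aldoa stood at 157 and 199 CPM in the control mice, 440.5, 469 and 659 CPM in the HFD+F+CCl4 mice and 546 and 488 CPM in the WD+F+CCl4 mice. All 5 NASH mice exceeded both controls, with changes of 1.58 (SE 0.32, adjusted p = 0.0506) and 1.59 (SE 0.35, adjusted p = 0.0591). Without WD+F+CCl4 replicate 2 or 3 Aldoa was called in HFD+F+CCl4 mice. In all, 8 of 10 members stood above both controls, where 13% of genes did, and the medians were 0.87 and 1.02 over the members and 0.03 and 0.02 over all genes. Control replicate 2 had 107 of these cells with 151062 UMIs. The fewest UMIs of a member in a control mouse were 1 for Eno1, 2 for Hk2 and 6 for Pfkl among these 8. The macrophage markers, of which Ms4a7 and Trem2 were at 0 in both control mice, summed to 39.6 to 39.7 CPM in control and 633 to 2614 CPM in NASH endothelial-like cells, and hepatocyte markers to 3598 to 4309 and 255 to 1164 CPM. Their part in these values was not tested.

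Across the 6 cell types and both models, Aldoa was the member with the most calls, in 7 of 12 tests and in monocyte- and macrophage-, neutrophil-, B- and DC-like cells. Pgam1 and Pkm were called in 4 tests each, Hk2 in 2, and Pgk1 and Ldha in 1 each. Hk1, Gpi1, Pfkl and Eno1 were called in none, although Gpi1 and Pfkl were above 0 in all 12 tests. The tests share the same 2 control mice, and the share of all genes called this often is not reported here. Aldoa also held the most UMIs of the members (224705), and Hk1 (14941) and Pfkl (17101) the fewest. Changes of Pfkl reached 1.74 and those of Aldoa 1.68, so the number of calls does not rank the size of the changes. HFD+F+CCl4 replicate 3 was the highest mouse for 6 of 10 members in monocyte- and macrophage-like cells and for 7 in neutrophil-like cells.

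In all kept cells, summed by mouse, 5 of 10 members were higher in HFD+F+CCl4 mice, where 9.63% of 19787 genes were, and 6 of 10 in the WD+F+CCl4 model, where 11% were. None was lower, where 9.22% and 10.3% of genes were. In these sums a larger share of one cell type and more mRNA per cell cannot be told apart. Hk2 stood at 32.4 and 35.4 CPM in the control mice, 163, 114 and 123 CPM in the HFD+F+CCl4 mice and 114, 137 and 109 CPM in the WD+F+CCl4 mice. It was more than 3 times as high in every NASH mouse as in either control, with log2 fold changes of 2.08 (SE 0.19, adjusted p = 0.00120, edgeR) and 2.02 (SE 0.18, adjusted p = 0.00106), while in monocyte- and macrophage-like cells its levels overlapped. That class made up 789 of 14956 control cells, 18787 of 31956 HFD+F+CCl4 cells and 16790 of 33562 WD+F+CCl4 cells. Aldoa stood at 257 and 258 CPM in the control mice, 597, 519.8 and 789 CPM in the HFD+F+CCl4 mice and 598, 781 and 662 CPM in the WD+F+CCl4 mice, with no overlap and changes of 1.43 (SE 0.28, adjusted p = 0.0128) and 1.59 (SE 0.28, adjusted p = 0.00782).

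Pgam1 changed by 1.59 (adjusted p = 0.00747) and 1.62 (adjusted p = 0.00599) in all kept cells, Pkm by 1.08 (adjusted p = 0.0234) and 1.42 (adjusted p = 0.00820) and Pfkl by 0.89 (adjusted p = 0.0457) and 0.90 (adjusted p = 0.0396). Gpi1, the isomerase, passed in WD+F+CCl4 mice (0.82, adjusted p = 0.0309). In all, 7 of 10 members stood above both controls in every NASH mouse, where 16.4% of genes did, and the medians were 0.83 and 0.90 over the members and -0.01 and -0.06 over all genes. Without the clusters that took no name the counts were 4 and 5, where 6.94% and 9.06% of genes were higher. Hk2 was called in both models whichever mouse was left out. The count for HFD+F+CCl4 mice was 2 without control replicate 1, 1 without control replicate 2, 3 without HFD+F+CCl4 replicate 2 and 8 without HFD+F+CCl4 replicate 1, and the count for WD+F+CCl4 mice was 2 without control replicate 2.

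No member passed the test between the models. In WD+F+CCl4 against HFD+F+CCl4 mice, 0 of 10 members passed in each of the 7 fits with edgeR, where 0% of genes passed in 6 of them and 0.122% in B-like cells. DESeq2 also called 0 members. At an unadjusted p under 0.05 edgeR counted 1 in monocyte- and macrophage-like cells and 1 in DC-like cells, in both cases Hk1, with changes of 0.35 (SE 0.13, adjusted p = 0.682) and 0.42 (SE 0.15, adjusted p = 0.411). The spread between the 3 HFD+F+CCl4 mice was wide for several members, as for Pgk1 in monocyte- and macrophage-like cells, which stood at 169 and 216 CPM in the control mice, 154, 209 and 382 CPM in the HFD+F+CCl4 mice and 242, 283 and 271 CPM in the WD+F+CCl4 mice. HFD+F+CCl4 replicate 3 was more than 2 times as high as replicate 1 and the 3 groups overlapped.

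Of the other 14 glycolytic enzymes and isoenzymes, 1 was higher in monocyte- and macrophage-like cells in the HFD+F+CCl4 model and 2 in the WD+F+CCl4 model, and 0 were lower. Eno3, the muscle-type enolase, rose from 12.7 to 37.6 CPM in the controls to 81.6 to 165 CPM and 101 to 128 CPM, by 1.92 (SE 0.45, adjusted p = 0.0392) and 1.94 (SE 0.45, adjusted p = 0.0309) on the log2 scale. Eno3 is also a leading gene of cluster 1, which is only part of the patrolling monocyte-like cells. The rest of that type lay in clusters 8 and 9, described above, and the type held only 31 and 13 cells of the control mice. The part of clusters 8 and 9 in the levels given for patrolling monocyte-like cells was not tested. Tpi1, the isomerase after aldolase, changed by 1.39 (SE 0.36, adjusted p = 0.0448) in WD+F+CCl4 mice and had a value of 1.16 (adjusted p = 0.0869) in HFD+F+CCl4 mice.

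The other enzymes of this list that are named here did not pass in monocyte- and macrophage-like cells. Hk3, the hexokinase of myeloid cells, had values of 0.34 and 0.79, Gapdh of 0.32 and 0.65, Aldoc of 0.99 and 0.52, and Bpgm of -0.14 and 0.11. The platelet-type phosphofructokinase Pfkp had values of -0.46 and -0.62, the muscle type Pfkm of -1.78 and -1.87, and the lactate dehydrogenase subunit Ldhb of -1.23 and -1.40. Pgam2 and Pklr held 2 and 3 UMIs in the control mice together, too few for a fold change, and Eno2 held 0 UMIs there and 0.474 to 0.857 CPM in the NASH mice.

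Glucose transporters and regulators gave no higher member of 13 in monocyte- and macrophage-like cells and 1 lower in each model, the liver transporter Slc2a2. The 4 gluconeogenic genes also gave 1 lower in each model, the liver enzyme G6pc. Both are hepatocyte genes, and the hepatocyte markers moved the same way in these cells, as given above. Of 10 hypoxia-responsive genes outside glycolysis, 0 passed in either model, with medians of 0.86 and 0.56, and of 7 pentose phosphate genes 0 passed. Of 10 genes of the pyruvate dehydrogenase group 0 and 1 were higher, the 1 being Pdk1, a kinase of pyruvate dehydrogenase, and of 8 stress genes 0 passed.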

How the data were processed

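The authors demultiplexed the libraries with bcl2fastq (2.20) and counted UMIs per gene and cell with Cell Ranger against a mouse reference, and deposited the raw UMI counts of all 8 libraries in 1 matrix. Cells were given to mice by the barcode suffix named in each sample description. Cells with over 500 genes and under 25% mitochondrial UMIs were kept, the 2000 most variable genes without the glycolysis genes gave 30 principal components, and a graph of 20 neighbours was clustered with leidenalg 0.10.2 at resolution 0.6. Clusters were named from markers only where at least 3 were detected. No doublet caller was run, and cells with markers of 2 lineages were left out as an alternative.

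Counts were summed per mouse and cell type where a mouse had at least 20 cells. Groups came from the sample labels. All 3 comparisons between groups came from 1 fit per cell type in edgeR 4.0.16 (TMM, filterByExpr with a minimum count of 10, quasi-likelihood test, Benjamini-Hochberg threshold 0.05, R 4.3.3). The difference of the NASH effect between cell types was fitted on within-mouse log2 CPM differences (prior count 2) in limma 3.58.1, with precision weights added after the unweighted fit made false calls on simulated data. Alternatives covered DESeq2 1.42.0, scaling, filters, cell filters, cycling cells, clustering, the replicate number and each mouse left out. Standard errors are on the log2 scale. For counts of members at an unadjusted p in edgeR, and for those of DESeq2, the share of all genes is not reported here. P-values cover the spread between mice, and the control group holds 2.

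In data simulated from monocyte- and macrophage-like cells of HFD+F+CCl4 and control mice (16442 genes), edgeR recovered 49% of 200 genes changed by 2 on the log2 scale, with 8 false calls. The limma test recovered 14% for the difference to T-like cells (12492 genes), with 2 false calls. NK-like cells were not tested because control replicate 2 had 17 of them. Start site sequences and motif shares are from RefSeq (GRCm38.p6) and matched all 10 members by symbol. The members and all gene lists were chosen with earlier results of these data known. Named genes are the 10 members throughout, and from the other lists those past the threshold and the other glycolytic enzymes in monocyte- and macrophage-like cells, of which some are not reported here.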

Additional observations from a re-analysis of the deposited data

Results flagged for a closer look

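The difference between NASH and control mice was not the same in monocyte- and macrophage-like cells as in T-like cells for 6 of the 10 enzymes, by limma's test of the difference itself over 8 mice, in which 9.12% of genes differed and 3.64% in this direction. The log2 difference was larger in the myeloid cells by 1.32 for Ldha, 1.14 for Pfkl, 0.94 for Pgam1, 0.80 for Pgk1, 0.70 for Pkm and 0.62 for Aldoa. Control T-like cells held many more cycling cells than those of NASH mice, and control myeloid cells lay in a cluster of their own. Without cycling cells, Aldoa and Ldha were called. With the T-marker clusters 6 and 26 counted as T-like, only Ldha of the 6 was called (0.79), Hk2 differed in the opposite direction (-1.45), and the median over the 10 enzymes was 0.22 in place of 0.66. Without control replicate 1 only Ldha was called.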

How the results depend on the processing

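The controls are 2 mice, and the shallower of them gave few cells of several types, which limits every call. For the counts of members in this section, and those above with single mice left out, the share of all genes is not reported here unless given above. Without it these counts do not tell whether the members moved or all genes did. In monocyte- and macrophage-like cells of HFD+F+CCl4 mice the count of members (2) was 4 with no filter, with DESeq2 and in classical monocyte-like cells, 1 with over 1000 genes per cell, and 0 with the replicate block or with glycolysis genes allowed in the clustering. In WD+F+CCl4 mice the count (4) was 0 with the replicate block, 2 with over 1000 genes and 1 with glycolysis genes allowed. With glycolysis genes allowed, only 1 member was among the variable genes. The monocyte- and macrophage-like cells of control replicate 1 then fell from 519 to 71, so the control cells compared were another set. Summed over the other cell types, the HFD+F+CCl4 count (5) was 8 with library size only, 11 with no filter, 9 with DESeq2, 3 with the replicate block, 3 with over 1000 genes and 2 without cells of 2 lineages. The WD+F+CCl4 count (8) was 17 with no filter, 4 with the block and 3 without cells of 2 lineages. Neutrophil-like cells, which gave 2 and 3 of the main calls, were not fitted with over 1000 genes or without cells of 2 lineages. They add 0 to those counts, so the lower counts there cover fewer cell types. In all kept cells the block gave 2 in each model (5 and 6). The difference between monocyte- and macrophage-like and T-like cells (6) was 3 without weights, with the block or with over 1000 genes, 2 without cycling cells or with glycolysis genes allowed, 1 at the higher resolution and 2 with clusters 6 and 26, of which Hk2 differed in the opposite direction. The cause was not tested.

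With single mice left out, the counts ranged from 0 to 3 and 0 to 5 in monocyte- and macrophage-like cells of the models, 1 to 7 and 2 to 10 over the other types, 1 to 8 and 2 to 8 in all kept cells, and 1 to 5 for the difference to T-like cells. The counts for WD+F+CCl4 against HFD+F+CCl4 and for the difference to endothelial-like cells were 0 in all of these fits. The log2 change of Hk2 in monocyte- and macrophage-like cells turned positive in HFD+F+CCl4 mice without control replicate 1 (0.11), without HFD+F+CCl4 replicate 2 (0.03), without cycling cells (0.010), with glycolysis genes allowed (0.22) and in classical monocyte-like cells (0.24), and in WD+F+CCl4 mice without control replicate 1 (0.045) and with glycolysis genes allowed (0.16). With single mice left out it ranged from -0.22 to 0.11 and from -0.19 to 0.045. Of 727 values of single members, 543 kept direction and side of the threshold, 177 lost the threshold and 7 reversed. These values cover only results called in the main fits, and Hk2 in monocyte- and macrophage-like cells, so other members that were not called are left out. All 7 reversals were of Hk2 in those cells, 5 in HFD+F+CCl4 and 2 in WD+F+CCl4 mice. Mice with the same number had correlations of their deviations between -0.61 and 0.11, so the numbers do not pair the mice and the block rests on a shared number only. Neutrophil-like cells were not run with over 1000 genes, without cells of 2 lineages, without cycling cells or at the higher resolution, and endothelial-like cells not without cells of 2 lineages, because too few cells were left. The alternatives with classical monocyte-like cells, without clusters 8, 9 and 11, with clusters 6 and 26, with DC1-like cells, without unnamed clusters and without weights were chosen after seeing the data.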

Other observations

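The pentose phosphate pathway, which branches from glucose 6-phosphate and supplies NADPH, had 4 of 7 genes higher in B-like cells of WD+F+CCl4 mice by edgeR's quasi-likelihood test, where 6.76% of all genes were. These were G6pdx (log2 fold change 1.01), Pgls (0.74), Pgd (1.17) and Tkt (1.02). In HFD+F+CCl4 mice 1 of 7 was higher in B-like cells, Pgd (1.10), where 3.75% of genes were. In DC-like cells the same 4 genes were higher in WD+F+CCl4 mice, G6pdx by 0.89, Pgls by 0.72, Pgd by 0.88 and Tkt by 0.63, where 6.61% of genes were, and 1 of 7 in HFD+F+CCl4 mice, Pgls (0.88), where 2.96% were. Control DC-like cells were mostly DC1-like and those of NASH mice mostly DC2-like, and macrophage markers summed to 196 to 2335 CPM in B-like and 600.4 to 917 CPM in DC-like cells of NASH mice, against 19.2 to 25.2 and 53.2 to 75.4 CPM in control mice. Their part was not tested. In neutrophil-like cells Tkt was higher in both models (1.15 and 1.23), and in monocyte- and macrophage-like, T-like and endothelial-like cells none of the 7 passed.

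Of 6 hypoxia-responsive genes tested in B-like cells, 1 was higher in HFD+F+CCl4 mice, Ankrd37 (1.73), and 2 in WD+F+CCl4 mice, Ankrd37 (1.75) and P4ha1 (1.15). In DC-like cells 1 of 8 passed in each model, also Ankrd37, with only 6 UMIs in the control mice together, too few for a fold change. The lactate exporter Slc16a3 was higher in DC-like cells of WD+F+CCl4 mice (1.88). Tpi1 was higher in DC-like cells of both models (1.00 and 1.03), and in B-like (1.11) and neutrophil-like cells (1.54) of WD+F+CCl4 mice.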
